A study of Mus musculus with 4 samples.

Results

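Ly6a, Anxa1, Clu, Il33, Anxa3, Msln, Spp1, Il1rn and Yap1 are genes that epithelium of the gut switches on while it regenerates in a fetal-like state. They were taken by gene name from the count table of the small intestine (SI), where each matched 1 gene, so the set is 9 of 56748 genes. The libraries came from the SI of p53+/+ mice (labelled WT) and of p53-/- mice, all 1 day after 12 Gy total-body irradiation (TBI) with a Cs-137 γ-source. There were 2 libraries per genotype, numbered 7 and 8 for p53+/+ and 9 and 10 for p53-/- mice as the columns of the table are. The animals were adult, matched for age and sex according to the study's methods. The p53-/- mice lack p53 in every cell, immune and stromal cells included, and all 4 libraries were irradiated, so there is no unirradiated level to set beside the values. The question the comparison addresses is how the RNA of the irradiated SI differs when p53 is missing.

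After damage, crypt stem cells of the gut can be lost, and the surviving epithelium can take on a program that resembles the fetal gut, marked by the surface protein Ly6a (Sca-1), annexins and clusterin. The program is driven by YAP, a transcriptional coactivator that the Hippo kinase cascade keeps out of the nucleus and that binds DNA through TEAD factors. Several of the same genes are also made by cells other than epithelium, such as lymphocytes, stromal cells and mesothelium.

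The libraries held 15005479 to 22173164 counts in genes. The quasi-likelihood test of edgeR was run on the 16094 genes that passed a filter on low counts, and 79 of them (0.491%) had an adjusted p under 0.05 (Benjamini-Hochberg over those genes). Trp53 itself was at 57.7 and 47.1 CPM (a gene's counts scaled to library totals of equal size, with TMM factors) in p53+/+ and at 19.8 and 22.5 CPM in p53-/- libraries (log2 fold change -1.31, adjusted p = 0.0602). Of 10 listed p53 target genes, 6 fell past the threshold, where 0.193% of all tested genes did. The 12 epithelial markers summed to 17200 to 30200 CPM, with none at 0, and all 12 had a negative log2 fold change in p53-/- libraries (median -0.46, none past the threshold, -0.18 without p53+/+ library 7 and -0.68 without p53+/+ library 8). The libraries were unlike within each genotype. p53-/- library 10 had 618 CPM of B cell markers against 33.1 in library 9, and 4.59% of its counts on the 18S ribosomal gene Rn18s-rs5 against 0.863%. p53+/+ library 8 had 4810 CPM of smooth muscle markers and 904 CPM of fibroblast markers, against 516 and 283 CPM in library 7.

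Of the 9 genes, 8 passed the filter on low counts and Spp1 did not. None of the 8 passed the adjusted threshold in either direction, where 0.298% of all tested genes were called higher and 0.193% lower. By edgeR, 3 of the 8 (Il1rn, Ly6a and Yap1) had an unadjusted p under 0.05, as 18.0% of all tested genes did. DESeq2 called 1 of the 8, Il1rn, where it called 9.16% of all genes. Ly6a was higher in both p53-/- libraries than in both p53+/+ libraries (26.4% of tested genes were), and Il1rn, Yap1, Anxa3 and Msln were lower in both (24.4% of tested genes were). Of the 8, 3 had a log2 fold change above 0, as 49.3% of tested genes did. Their median log2 fold change was -0.44, against -0.01 over all tested genes and -0.46 over the 12 general epithelial markers. It was -0.54 to -0.28 when each library was left out. The part of the epithelial marker levels in these values was not tested. In bulk tissue, fewer cells of a type and less RNA per cell cannot be told apart for any of these values.

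**Figure D1:**
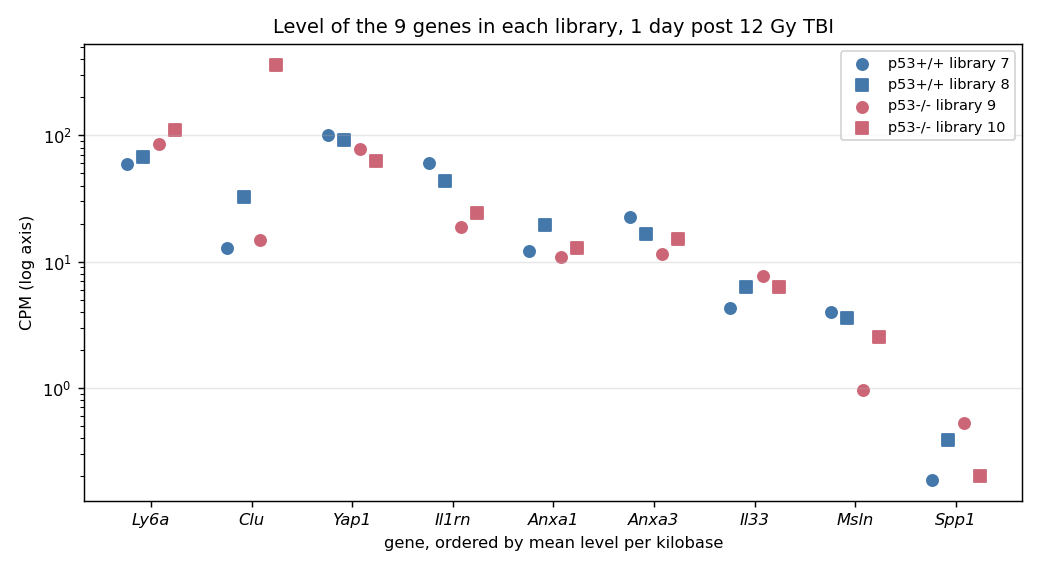
Level of each of the 9 genes in CPM (log axis) in each of the 4 libraries, with p53+/+ libraries in blue and p53-/- libraries in red. Il1rn, Yap1, Anxa3 and Msln are lower in both p53-/- libraries, Ly6a is higher in both, and Clu stands at 362 CPM in p53-/- library 10 alone.

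Levels can be compared between genes only per kilobase of exon, and on that scale (CPM per kilobase of GENCODE M21 exon) Ly6a was the highest of the 9 in p53+/+ libraries, at a mean of 52.1. Yap1 (10.4), Il1rn (9.41), Clu (6.60), Anxa1 (5.44) and Anxa3 (5.34) followed, and in that run each gene's range over the libraries overlapped that of the next. Il33 (1.83), Msln (1.23) and Spp1 (0.174) came below, each apart from its neighbours. In p53-/- libraries Ly6a was again at the head with a mean of 81.3, with Clu next at 54.6, a mean over 4.30 and 105 that overlapped its neighbours on both sides. Il1rn, which stood above Anxa1 in p53+/+ libraries, was at 3.90 beside Anxa1 at 4.06 and Anxa3 at 3.63, with overlapping ranges.

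Yap1, the coactivator at the head of the program, was at 101 and 91.4 CPM in p53+/+ libraries and at 77.5 and 62.5 CPM in p53-/- libraries. Both p53-/- libraries lay below both p53+/+ libraries, with the lowest value in library 10. The log2 fold change was -0.45 ± 0.179 (SE, n = 2 libraries per genotype), with a 95% interval of -0.90 to -0.01, and it missed the threshold (adjusted p = 0.273, edgeR). Leaving out each library in turn gave log2 fold changes of -0.62 to -0.25, the weakest of them without library 10. Its paralog Wwtr1, which encodes TAZ, was at 4.58 and 22.1 CPM in p53+/+ and at 10.3 and 9.60 CPM in p53-/- libraries, so the p53-/- values lay inside the p53+/+ range. Yap1 had more counts than Wwtr1 in every library, between 4.13 and 21.9 for each Wwtr1 count, with both extremes in p53+/+ libraries.

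None of the 28 tested genes of the Hippo cascade and YAP's partners passed the threshold, and their median log2 fold change was -0.16, with 10 positive and 18 negative. The median was 0.00 without library 10 and -0.29 without library 9. Ajuba, a scaffold that restrains the LATS kinases, was at 11.4 and 10.7 CPM in p53+/+ against 4.87 and 4.38 CPM in p53-/- libraries (log2 fold change -1.26, adjusted p = 0.145). Wwc1, which encodes the upstream activator KIBRA, was at 321 and 205 CPM against 143 and 113 CPM (log2 fold change -1.03, adjusted p = 0.163). Amot, which encodes the YAP-binding angiomotin, had the opposite sign, at 18.8 and 14.5 CPM against 37.8 and 27.4 CPM (log2 fold change 0.97, adjusted p = 0.160). The genotypes did not overlap in these 3 genes, which follows from naming only genes that did not. Of the 28, 5 were higher in both p53-/- libraries (26.4% of all tested genes were) and 9 lower in both (24.4% were).

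The list of 22 YAP target genes had 21 tested members, of which none passed the threshold, 4 were positive and 17 negative (median log2 fold change -0.33). The sign of that median depended on a library: it was -0.96 without p53+/+ library 7 and 0.52 without p53+/+ library 8, the library with the high muscle and fibroblast marker levels. Nt5e, the ecto-enzyme CD73, was at 56.0 and 78.8 CPM in p53+/+ and 25.9 and 14.6 CPM in p53-/- libraries (log2 fold change -1.73, adjusted p = 0.103). Lats2, a kinase that YAP induces and that restrains YAP in turn, was at 18.6 and 23.7 against 12.4 and 11.4 CPM (log2 fold change -0.83, adjusted p = 0.185). Asap1 was at 98.9 and 43.1 against 26.5 and 33.7 CPM (log2 fold change -1.24, adjusted p = 0.211). Of the 21 tested targets, 3 were higher in both p53-/- libraries (26.4% of all tested genes were) and 7 lower in both (24.4% were). Nt5e, Lats2 and Asap1 were named among those that did not overlap. Their sign was kept when any library was left out, but after that choice it could hardly change. The part of the stromal marker levels in the other targets was not tested.

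Since YAP acts through TEAD factors, the promoters of the set were searched for the TEAD motif GGAATG on both strands, in the 250 bases before each start site. RefSeq promoter sequences (GRCm38.p6) were matched for 5 of the 9 genes, Anxa1, Il1rn, Il33, Spp1 and Yap1, with 9 promoters among them. The motif was found in 5 of the 9 promoters, in 4 of the genes, and in 12.6% of 32817 mouse promoters searched in the same way. The matches are shown 5′ to 3′ in the sense of the gene, each in a window of 30 bases, with the motif or its complement in capitals, since they are the letters that the count rests on.
Anxa1 (chr19:20390890-20390919, minus strand): actgcactgaacCATTCCtgtgaggaataa
Il1rn (chr2:24345335-24345364, plus strand): tgacagtggaacGGAATGacagcagcacag
Il33 (chr19:29924970-29924999, plus strand): gtaacattggcaGGAATGctattagcttat
Il33, another start (chr19:29945671-29945700, plus strand): tacacaccctcaCATTCCattcatatcgct
Yap1 (chr9:8004720-8004749, minus strand): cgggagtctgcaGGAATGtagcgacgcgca
The motif lies 236 to 231 bases before the start of Anxa1, 24 to 19 before a start of Il1rn, 131 to 126 and 107 to 102 before the starts of Il33, and 141 to 136 before that of Yap1. The 4 genes with a match did not have the same sign: Il1rn, Yap1 and Anxa1 had negative log2 fold changes and Il33 a positive one.

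Other motifs were searched in the same promoters and on both strands. The AP-1 motif TGANTCA was found in 1 of the 9 promoters, a promoter of Il1rn (6.75% of all promoters). The interferon-stimulated response element was found in 1, of Spp1 (2.97%), and the STAT motif TTCNNNGAA in none (7.01%). The NF-kB motif was found in 4 of the 9 promoters, of Anxa1, Il1rn and Yap1, and is common (45.8%). The p53 decamer was found in 1 promoter, of Anxa1 (7.12%). No match overlapped a match of another motif. These are matches of letters in a window, not sites shown to be bound.

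Ly6a, the surface protein Sca-1 that marks fetal-like and regenerating epithelium and also many lymphocytes and endothelial cells, was at 58.8 and 66.7 CPM in p53+/+ and at 85.4 and 111 CPM in p53-/- libraries. The genotypes did not overlap, and library 10 was the highest. The log2 fold change was 0.64 ± 0.193 (SE, n = 2 libraries per genotype), a fold of 1.56, with a 95% interval of 0.16 to 1.13, and it missed the threshold (adjusted p = 0.187, edgeR). It stayed between 0.50 and 0.81 when each library was left out. For each count of the epithelial gene Epcam, Ly6a had 0.0141 and 0.0221 counts in p53+/+ and 0.0328 and 0.0497 counts in p53-/- libraries. Epcam itself was at 4180 and 3020 CPM against 2600 and 2220 CPM (log2 fold change -0.58, adjusted p = 0.443). The ratio therefore holds the difference in Epcam as well, and it is not a level per epithelial cell.

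Ly6a is induced by interferon in many cell types. Besides the p53 targets, the interferon response list was the only pathway list with genes past the threshold. All 24 of its tested genes were higher in both p53-/- libraries (26.4% of all tested genes were), with a median log2 fold change of 1.89. Of the 24, 4 rose past the threshold (0.298% of all tested genes did): Cxcl9, Psmb8, Psmb9 and Irgm1. Cxcl9, a T cell chemokine, went from 1.30 and 1.95 to 26 and 23.8 CPM (log2 fold change 3.94, adjusted p = 0.0279), and Psmb8, an immunoproteasome subunit, from 22.3 and 27.0 to 108 and 120 CPM (log2 fold change 2.21, adjusted p = 0.0271). T cell markers had the same direction, summing to 11.4 and 25.6 CPM in p53+/+ and to 102 and 208 CPM in p53-/- libraries, with 14 of 15 markers higher in both p53-/- libraries, against 26.4% of all tested genes, and a median log2 fold change of 3.73. None of the T cell markers passed the threshold. Endothelial markers summed to 49.8 and 133 CPM against 109 and 121 CPM and overlapped. The part of interferon or of T cells in the Ly6a value was not tested.

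Among the 11 tested of 21 genes of the Ly6 family, none passed the threshold, 7 were positive and 4 negative (median log2 fold change 0.35, 0.09 without library 7 or library 10 and 1.07 without library 8). Ly6m, a negative one named after its values were seen, was at 519 and 628 CPM in p53+/+ and 351 and 266 CPM in p53-/- libraries (log2 fold change -0.89, adjusted p = 0.165). Ly6e was at 91.8 and 130 CPM in p53+/+ and 198 and 404 CPM in p53-/- libraries (log2 fold change 1.44, adjusted p = 0.163), so Ly6a had fewer counts for each Ly6e count in p53-/- libraries (0.432 and 0.274) than in p53+/+ libraries (0.641 and 0.515). Ly6c2, a monocyte gene, was at 0.186 and 2.40 CPM against 6.22 and 16.2 CPM (log2 fold change 3.12, adjusted p = 0.237). Ly6d, known from B cell precursors and squamous epithelium, was at 1.55 and 2.14 against 5.13 and 47.8 CPM (log2 fold change 3.84, adjusted p = 0.170), and without library 10 its log2 fold change was 1.52. Ly6l, Slurp1 and Psca had no count in any library. Ly6 genes are close in sequence, so reads that fit more than 1 of them may have been counted unevenly or left out, and the Ly6a value is uncertain in that respect.

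**Figure D2:**
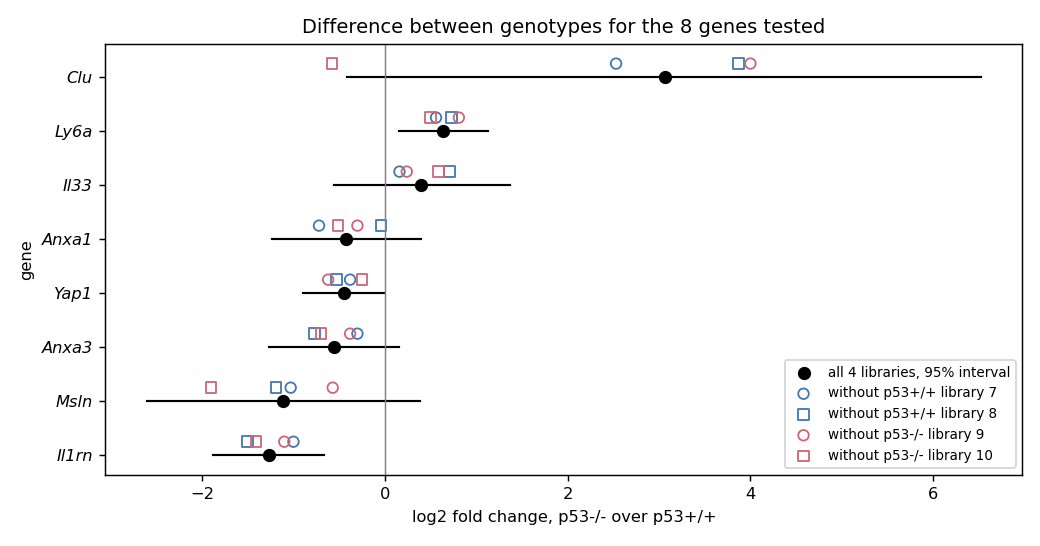
Log2 fold change of p53-/- over p53+/+ libraries for the 8 tested genes (black points) with 95% intervals (lines), and the value when each library was left out (open symbols). The intervals of Il1rn, Yap1 and Ly6a do not reach 0, none of the 8 passed the adjusted threshold, and Clu goes from 3.06 to -0.58 without library 10.

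Clu encodes clusterin, a secreted chaperone that marks revival stem cells of the damaged gut and that follicular dendritic cells also make. It had 207 and 501 counts in p53+/+ libraries and 337 and 7279 counts in p53-/- libraries, or 12.8 and 32.5 CPM against 14.8 and 362 CPM. Library 9 lay inside the p53+/+ range and library 10 far above every other library. The log2 fold change was 3.06 ± 1.38 (SE, n = 2 libraries per genotype), with a 95% interval of -0.41 to 6.52 and an adjusted p of 0.328 (edgeR). Without library 10 it was -0.58 (adjusted p = 0.951), so the direction rested on that library. The difference between libraries 9 and 10, 4.61 on the log2 scale, was larger than that of 99.9% of tested genes, and 8.38% of tested genes differed by 1 or more between these libraries.

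Markers of lymphoid follicles and of B cells were also highest in library 10. The 8 measured genes of the follicular dendritic cell and follicle list summed to 89.7, 79.4 and 72.8 CPM in libraries 7, 8 and 9 and to 616 CPM in library 10, of which Mfge8 alone made up 422 CPM. Bst1 of that list did not share the pattern, at 53.2, 15.6, 13.1 and 19.6 CPM in libraries 7 to 10, and like Cr2, Gp2 and Marcksl1 it is named after its values were seen. Of the 6 tested follicle genes none passed the threshold, and their median log2 fold change was 2.34, or 0.40 without library 10. Cr2, the complement receptor of follicular dendritic cells and B cells, had 1 and 0 counts in p53+/+ libraries and 10 and 894 in p53-/- libraries. B cell markers summed to 3.16, 4.54, 33.1 and 618 CPM in libraries 7 to 10. Macrophage markers summed to 74.1, 226, 293 and 735 CPM, but most of the step from library 9 to 10 came from Lyz2 (53.2 and 411 CPM), and the median difference of the tested macrophage genes between these libraries was 0.36 on the log2 scale. The 8 M cell and follicle epithelium markers summed to 424, 374, 507 and 730 CPM, with a median difference between libraries 9 and 10 of 0.48. Among them Gp2 had 7, 5, 5 and 217 counts in libraries 7 to 10, whereas Marcksl1 was at 117, 96.5, 103 and 122 CPM. No marker of the follicle, B cell, M cell or macrophage lists was at 0 in all libraries. Their part in the Clu value was not tested.

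The genes whose pattern over the 4 libraries was closest to that of Clu were Mfge8, Il22ra2 and Snn, with root mean square differences of 0.554, 0.559 and 0.592 on the log2 scale among 12289 protein-coding genes. Mfge8, a bridging protein for dying cells that follicular dendritic cells secrete and the gene that carried the sum of the follicle list, was at 33.5, 51.8 and 45.3 CPM in libraries 7, 8 and 9 and at 422 CPM in library 10. Il22ra2, a soluble receptor that binds IL-22, was at 1.18, 2.47, 1.93 and 17.0 CPM. All 3 genes were high in library 10 alone, as Clu was, which follows from choosing them for that pattern.

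**Figure D3:**
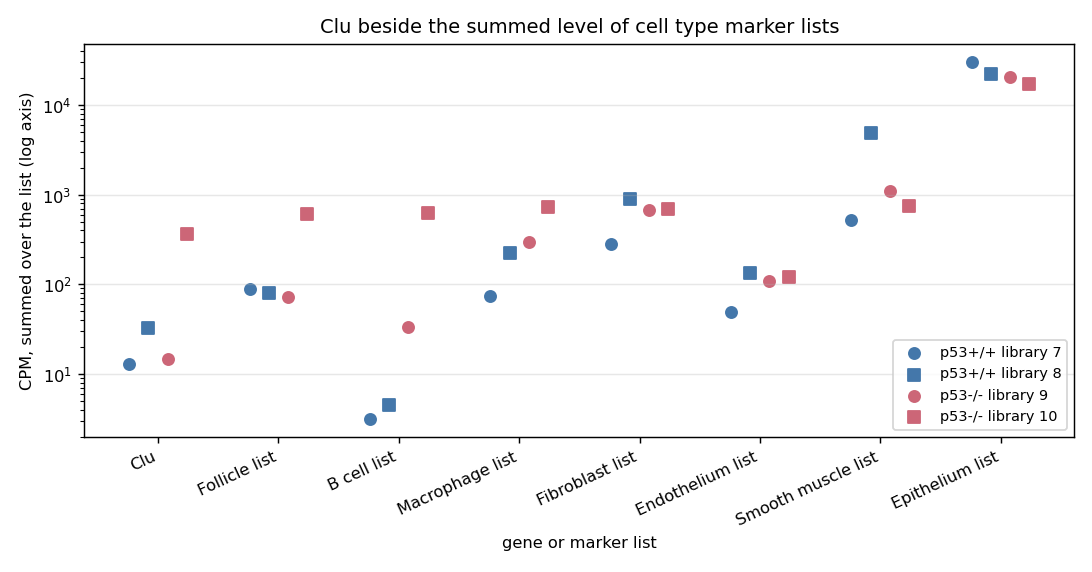
Clu and the summed level of marker lists in CPM (log axis) in each library, with p53+/+ libraries in blue and p53-/- libraries in red. Clu, the follicle list and the B cell list are highest in p53-/- library 10, and the fibroblast, endothelium and smooth muscle lists are lowest in p53+/+ library 7.

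Il1rn encodes the IL-1 receptor antagonist, which occupies the IL-1 receptor without signaling, and it had the lowest p of the set. It was at 60.6 and 43.3 CPM in p53+/+ and at 18.8 and 24.4 CPM in p53-/- libraries. The genotypes did not overlap, and the gap between them was wider than that within either. The log2 fold change was -1.27 ± 0.244 (SE, n = 2 libraries per genotype), with a 95% interval of -1.88 to -0.66, and p was 0.00267 unadjusted and 0.103 adjusted (edgeR). The call depended on the method, and 3 of 10 alternative settings called Il1rn. The adjusted p was 0.000808 by DESeq2 and 8.15e-06 by edgeR with no filter on low counts, and the remaining call came without p53+/+ library 8. By edgeR it was 0.101 with library size only and 0.0991 with at least 10 counts in every library, so neither called it. Leaving out each library gave log2 fold changes of -1.50 to -1.0.

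The ligands that Il1rn opposes were measured at low level. Il1b was at 0.495 and 1.30 CPM in p53+/+ and at 2.59 and 3.93 CPM in p53-/- libraries (log2 fold change 1.86, adjusted p = 0.230). Il1a, named after its values were seen, was at 0.248 and 0.389 against 0.789 and 1.24 CPM (log2 fold change 1.65, adjusted p = 0.289). For each Il1b count there were 122 and 33.4 Il1rn counts in p53+/+ libraries and 7.25 and 6.20 in p53-/- libraries, and the genotypes did not overlap. These ratios rest on few Il1b counts, 8 and 20 in p53+/+ and 59 and 79 in p53-/- libraries, so they are imprecise. For each count of the receptor gene Il1r1 there were 18.8 and 3.18 Il1rn counts in p53+/+ and 2.50 and 2.59 in p53-/- libraries, where the high value came from library 7, the library low in stromal markers. Of the 14 tested of 19 IL-1 family genes none passed the threshold, 10 were positive and the median log2 fold change was 0.27, ranging from 0.03 without p53+/+ library 7 to 1.02 without p53+/+ library 8. Il18bp, the binding protein that neutralizes IL-18 and that interferon induces, was at 2.41 and 4.15 CPM in p53+/+ and at 23.8 and 32.9 CPM in p53-/- libraries (log2 fold change 3.11, adjusted p = 0.0510). Il36rn and Il1f10 had no count in any library.

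The genes closest to Il1rn in pattern were Tnnt1, Cox6b2 and Arnt2, with root mean square differences of 0.0360, 0.0383 and 0.0742 on the log2 scale over the 4 libraries. Cox6b2, a subunit of cytochrome c oxidase, was at 17.0 and 11.4 CPM in p53+/+ and 5.26 and 6.57 CPM in p53-/- libraries. Like Il1rn, the 3 genes were highest in library 7 and lowest in library 9, which follows from choosing them for that pattern. Macrophage markers, from cells that also make Il1rn, had the opposite direction to it, with 13 of 13 tested genes positive (median log2 fold change 1.17, none past the threshold, 0.62 without library 7 and 2.34 without library 8). Epithelial markers had its direction, with the medians given above. Their part in the Il1rn value was not tested.

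Il33 encodes an alarmin of the IL-1 family that stromal, endothelial and epithelial cells hold in the nucleus and release on damage. It was at 4.27 and 6.29 CPM in p53+/+ and at 7.71 and 6.27 CPM in p53-/- libraries. The genotypes overlapped, since library 10 was just under library 8. The log2 fold change was 0.40 ± 0.384 (SE, n = 2 libraries per genotype), with a 95% interval of -0.56 to 1.37 and an adjusted p of 0.655 (edgeR), and that interval spans both directions. Leaving out each library gave 0.16 to 0.71. Its receptor gene Il1rl1 (ST2) was at 3.16 and 10.3 CPM against 4.69 and 6.12 CPM (log2 fold change -0.31, adjusted p = 0.845). Il33 was lowest in library 7, where fibroblast and endothelial markers were also lowest, and that part was not tested.

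The 2 annexins of the set, membrane-binding proteins regulated by calcium, both had negative values. Anxa3 was at 22.5 and 16.4 CPM in p53+/+ and at 11.5 and 15 CPM in p53-/- libraries, so the genotypes did not overlap but libraries 8 and 10 lay close. Its log2 fold change was -0.56 ± 0.285 (SE, n = 2 libraries per genotype), with a 95% interval of -1.27 to 0.16 and an adjusted p of 0.388 (edgeR), and it was -0.77 to -0.30 when each library was left out. Anxa1, which quiets inflammation through formyl peptide receptors, was at 12.1 and 19.5 CPM against 10.8 and 12.9 CPM and overlapped. Its log2 fold change was -0.42 ± 0.325 (95% interval -1.23 to 0.40, adjusted p = 0.572), and -0.04 without p53+/+ library 8, which had the highest level. Anxa1 overlaps the gene 1500015L24Rik on the other strand and Anxa3 overlaps Gm42603 on the same strand in the M21 annotation, and whether counting used strand is not given in the sources used here.

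Of the 11 tested annexin genes none passed the threshold, 8 were negative and the median log2 fold change was -0.42, or -0.67 to -0.28 when each library was left out. The median of the general epithelial markers was -0.46, and their part in the annexin values was not tested. Anxa8 differed most: it was at 7.61 and 6.03 CPM in p53+/+ and at 0.438 and 0.199 CPM in p53-/- libraries (log2 fold change -4.38, adjusted p = 0.0569). Anxa2, the annexin with the most counts, was at 1970 and 1360 against 1030 and 1000 CPM (log2 fold change -0.71, adjusted p = 0.289). Anxa13, an annexin of gut epithelium, was at 282 and 173 against 137 and 147 CPM (log2 fold change -0.68, adjusted p = 0.279). Anxa10 had no count in any library.

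Msln encodes mesothelin, a surface protein of mesothelium that regenerating gut epithelium also makes. It was low throughout, with 64 and 55 counts in p53+/+ and 22 and 51 counts in p53-/- libraries, or 3.96 and 3.57 CPM against 0.964 and 2.54 CPM. Both p53-/- libraries lay below both p53+/+ libraries, and most of the gap came from library 9. The log2 fold change was -1.11 ± 0.596 (SE, n = 2 libraries per genotype), with a 95% interval of -2.60 to 0.39 and an adjusted p of 0.406 (edgeR). It was -0.57 without library 9 and -1.90 without library 10. The genes closest in pattern were Gna15, Siva1 and Fosb, with root mean square differences of 0.0931, 0.153 and 0.175 on the log2 scale. Siva1, a pro-apoptotic gene that p53 induces, was at 25.4, 19.8, 6.49 and 12.6 CPM in libraries 7 to 10.

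Markers of tissue on the outer face of the gut were also lower in p53-/- libraries. The 10 mesothelial markers summed to 27.0 and 37.5 CPM in p53+/+ and to 21 and 21.5 CPM in p53-/- libraries, and none was at 0 in all libraries. Of the 6 tested, 5 were negative and none passed the threshold (median log2 fold change -1.0, or -0.09 without p53+/+ library 8). Upk3b, a defining mesothelial gene, had a log2 fold change of -1.85 (adjusted p = 0.120). The 10 adipocyte markers summed to 219 and 177 CPM against 75.2 and 83.0 CPM. Of the 9 tested, 2 fell past the threshold, Cfd and Car3, where 0.193% of all tested genes did. The part of mesothelium or fat in the Msln value was not tested.

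Spp1, which encodes osteopontin, a secreted ligand of integrins and CD44, had 3 and 6 counts in p53+/+ and 12 and 4 counts in p53-/- libraries. It was near the limit of detection in all 4 libraries and was not tested, and it overlaps Gm42793 on the same strand. A change in Spp1 was not detectable at this depth. Of 18 genes for binding partners of the secreted proteins of the set, 12 were tested, none passed the threshold and the median log2 fold change was -0.02, ranging from -0.37 without p53+/+ library 7 to 0.82 without p53+/+ library 8. Itga4, the α4 integrin of leukocytes, was at 1.05 and 5.51 CPM in p53+/+ and at 10.7 and 25.2 CPM in p53-/- libraries (log2 fold change 2.45, adjusted p = 0.227). Lrp8, a receptor that binds clusterin, was at 3.53 and 2.60 against 7.01 and 5.97 CPM (log2 fold change 1.08, adjusted p = 0.247).

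The wider fetal-like program was described with 22 further genes, of which 21 were tested. None passed the threshold by edgeR, 9 had an unadjusted p under 0.05 (18.0% of all tested genes did), and DESeq2 called 10 (9.16% of all genes). Of the 21, 19 were negative, 13 were lower in both p53-/- libraries (24.4% of tested genes were), and the median log2 fold change was -0.66. Beside it, 10 of the 12 general epithelial markers were lower in both p53-/- libraries, with a median of -0.46, and their part in this list was not tested. When each library was left out the median was -0.73 to -0.53. Anxa8, given above, was the lowest.

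The EGF receptor ligands of that list were next. Areg, which encodes amphiregulin, was at 67.1 and 203 CPM in p53+/+ and at 7.14 and 11.6 CPM in p53-/- libraries (log2 fold change -3.85, adjusted p = 0.0740, edgeR). Ereg, which encodes epiregulin, was at 85.8 and 210 CPM against 18.1 and 18.7 CPM (log2 fold change -3.01, adjusted p = 0.0637). In both genes the p53-/- libraries lay well below the p53+/+ libraries, which themselves differed. Cldn4 and S100a6 were chosen after their values were seen, as the other genes of the list with an adjusted p under that of Ereg. Cldn4, a tight junction claudin, was at 354 and 306 CPM against 120 and 122 CPM (log2 fold change -1.45, adjusted p = 0.0553), and S100a6, a calcium-binding protein, at 343 and 283 CPM against 120 and 122 CPM (log2 fold change -1.37, adjusted p = 0.0592). The exceptions to the negative sign were Anxa5 and Basp1, both also chosen after their values were seen, with log2 fold changes of 0.70 and 2.13, or 0.25 and 1.0 without library 10, where both had their highest level.

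**Figure D4:**
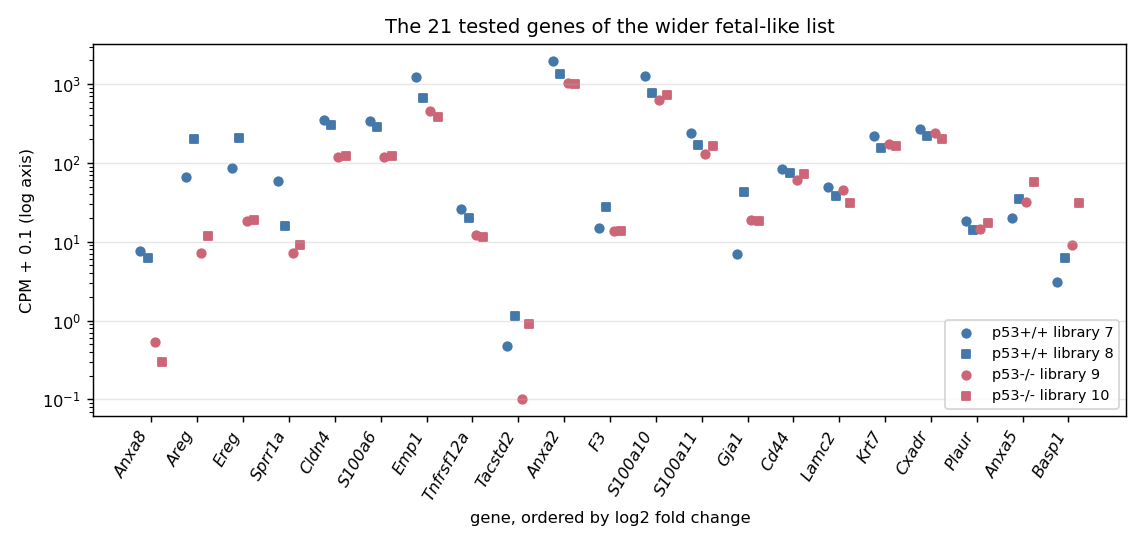
Level in CPM with 0.1 added (log axis) of the 21 tested genes of the wider fetal-like list, ordered by log2 fold change, with p53+/+ libraries in blue and p53-/- libraries in red. From Anxa8 to S100a6 on the left the p53-/- libraries lie below the p53+/+ libraries, and Basp1 on the right has its highest level in p53-/- library 10.

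Crypt stem cell genes, of the state that the fetal-like program is known to replace, were set beside it. None of the 15 tested genes passed the threshold, 10 were positive and the median log2 fold change was 0.26, or 0.26 to 0.41 when each library was left out. Of the 15, 8 were higher in both p53-/- libraries (26.4% of tested genes were) and 3 lower in both (24.4% were). The 3 lower genes were Ascl2, Rnf43 and Cdk6, named after their values were seen, with log2 fold changes of -0.82, -0.48 and -0.57. The largest differences were positive. Olfm4, a marker of crypt base stem cells that interferon and NF-kB can also induce, was at 47.6 and 16.0 CPM in p53+/+ and at 473 and 525 CPM in p53-/- libraries (log2 fold change 3.97, adjusted p = 0.0587). Aqp4, a water channel, was at 10.2 and 6.29 against 42.9 and 32.4 CPM (log2 fold change 2.19, adjusted p = 0.0602), and Prom1, which encodes CD133, at 85.2 and 67.2 against 193 and 154 CPM (log2 fold change 1.19, adjusted p = 0.0941).

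**Figure D5:**
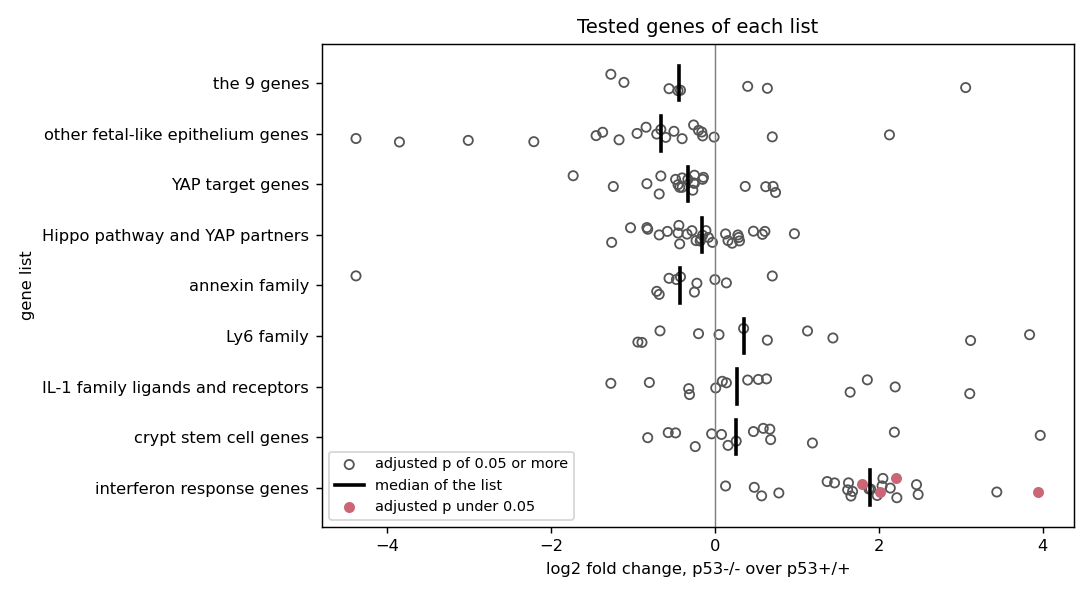
Log2 fold change of p53-/- over p53+/+ libraries for the tested genes of 9 lists, where each point is a gene, a bar is the median of its list, and filled red points passed the adjusted threshold. The medians run from -0.66 for the wider fetal-like list to 1.89 for the interferon response list, the only one of the 9 with genes past the threshold.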

How the data were processed

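Per the labels, total RNA of the SI was purified on poly-T beads and reverse transcribed from random hexamers. The deposited table holds raw counts per gene, and the submitters' processing notes name fastp, HISAT2 2.0.5, featureCounts 1.5.0-p3 and DESeq2 1.20.0. The build, annotation and strand setting are not given in the sources used here. Columns name a genotype and a number but no label replicate, so each is a replicate of its genotype. The study states that its replicates are biological, but the labels do not tie libraries to animals, and p-values measure the spread between libraries. The libraries of a genotype differed by far more than counting noise (chi-square per degree of freedom 48.0 and 69.5).

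Counts were tested with edgeR 4.0.16 (TMM, filterByExpr with a minimum count of 10, quasi-likelihood F test, two-sided, R 4.3.3) on all 4 libraries, with p adjusted over 16094 genes. The threshold was 0.05. DESeq2 1.42.0, other scalings, other filters, leaving out immunoglobulin and T cell receptor segments, and leaving out each library were alternatives. CPM used TMM-scaled totals, and log2 CPM a prior count of 2. The test was also run on simulated counts with known changes, and was judged on the sign and size of those changes. Simulated libraries of a genotype differed only in size and noise, so that run does not cover libraries as unlike as those here. The 9 genes and all lists were chosen with earlier results of these data known. Genes named were the 9, genes past the threshold of each list or else up to 3 with the largest non-overlapping log2 fold change and an average log2 CPM of at least 1, markers at 0, and for 3 of the 9 the 3 genes nearest in pattern. Adjusted p-values in the report are edgeR's unless DESeq2 is named. Motif windows came from RefSeq promoters (GRCm38.p6), whose build may not be that of the counts. A gene that the naming rule picked is not reported here.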

Additional observations from a re-analysis of the deposited data

How the results depend on the processing

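Over all genes, 48 were higher and 31 lower past the threshold. The counts were 26 and 20 with library size only, 812 and 663 with DESeq2, 1433 and 761 with no filter on low counts, and 24 and 18 with at least 10 counts in every library. Leaving out a library gave 0 to 680 higher and 0 to 344 lower. The count of 0 came without p53-/- library 10, where edgeR gave 1201 genes an unadjusted p under 0.05 and the smallest adjusted p was 0.108. The other counts were 325 and 319 without p53+/+ library 7, 680 and 344 without p53+/+ library 8, and 77 and 9 without p53-/- library 9. A genotype left with 1 library is assumed to vary like the other.

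Of the 9 genes, 0 passed the threshold in either direction. With no filter 2 were called higher, Ly6a (adjusted p = 0.0192) and Clu (adjusted p = 1.89e-37), and 1 lower, Il1rn. That fit called 2194 of 27841 genes. Its SE for Clu was 0.231, against 1.38 with the filter, though the p53-/- libraries stood at 14.8 and 362 CPM. The p-value of Clu without a filter therefore does not reflect the spread between libraries. DESeq2 called 1 lower, Il1rn, and leaving out a library gave 0 higher and 0 to 1 lower, the 1 being Il1rn without p53+/+ library 8. Of 80 alternative values for the 8 tested genes, 74 kept their direction and their side of the threshold. The reversed one was Clu, whose log2 fold change ran from -0.58 without p53-/- library 10 to 4.0 without p53-/- library 9. The cause was not tested. Of 220 alternative list medians, 192 moved by less than the spread between replicates. That spread is each list's own, so a list with unlike libraries could move far and stay within it. The fibroblast median, counted among the 192, went from 0.30 to -0.36 without p53+/+ library 7. The other scalings shifted the all-gene median log2 fold change by less than 0.1, and having no filter put it at 0.15.

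No paired analysis was possible because the columns carry no replicate number of the labels. With 2 libraries per genotype, the intervals of the 8 genes are wide, and Spp1 and Msln rest on few counts.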
